A study of Mus musculus with 4 samples.

Results

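The genes described here are the collagens, the matrix metalloproteinases (MMPs) and the tissue inhibitors of metalloproteinases (TIMPs). They were chosen by symbol alone, as every Col, Mmp and Timp gene with a numbered name, which gave 71 of the 55488 genes in the matrices: 44 collagens, 23 MMPs and 4 TIMPs. They were measured by single-cell RNA sequencing (scRNA-seq) of liver cells from 4 untreated mice, 1 per genotype. The WT mouse was wildtype, which the study describes as carrying no genetic modification. In the YAPKO mouse Yap, in the TAZKO mouse Taz and in the double knock-out (DKO) mouse both genes were floxed and removed by Cre recombinase under the albumin promoter (Alb-Cre), which acts in hepatocytes (HCs) and biliary epithelial cells (BECs). In all other liver cells the floxed alleles are left in place. The age of these 4 mice is not given in the sources used here. With 1 mouse per genotype no difference has a replicate check, no test was made, and each comparison is between libraries.

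Collagens are secreted as chains that fold into triple helices. Types I, III and V build fibrils, type IV builds the network of basement membranes, types XIV and XVI lie on the surface of fibrils, and type VI forms beaded filaments. MMPs are zinc-dependent proteases that cut collagen and other matrix proteins, and TIMPs bind to MMPs and block them. In the liver, hepatic stellate cells (HSCs) are known as the main source of fibrillar collagen in fibrosis, and sinusoidal endothelial cells (ECs) lie on a thin matrix without a complete basement membrane. Kupffer cells (KCs), the resident macrophages of the liver, and neutrophils are known sources of MMPs.

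The libraries held 49022089 to 85989454 unique molecular identifiers (UMIs, each a counted molecule), and 30362 cells were kept. The kept cells of the YAPKO library were the deepest, with a median of 7337 UMIs, and those of TAZKO the shallowest, with 3555.5. Between 10 and 67 barcodes were shared by any pair of libraries. Clusters were made without the members and named from marker genes as HSC-like, EC-like, KC-like and so on, and the names are written without that suffix from here on. Yap1 in HCs was at 21.4, 4.75, 47.3 and 4.51 CPM (counts scaled to 1000000 UMIs) in WT, YAPKO, TAZKO and DKO, and Wwtr1, the gene of TAZ, was at 5.13, 13.2, 1.24 and 2.32 CPM. Each was thus lower than in WT in the libraries labelled as lacking it. In ECs, where Alb-Cre does not act, Yap1 was at 39.8 to 57.3 CPM and Wwtr1 at 150.3 to 177 CPM in the 4 libraries.

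Levels are UMIs of a gene summed over the cells of 1 type in 1 library and divided by all UMIs of those cells, in CPM. Where 4 values follow each other without names, they are those of WT, YAPKO, TAZKO and DKO in this order. Differences are log2 ratios of CPM to WT with an exact 95% interval, and these intervals, like those of shares of cells, cover counting error only. A member was called when it was at least 2-fold from WT and had at least 100 UMIs in that cell type over the 4 libraries. The HSC cluster held 447 cells of WT, 187 of YAPKO, 298 of TAZKO and 197 of DKO. All 18 HSC markers were detected in it, with a summed level of 12354 to 16727 CPM. All 15 EC markers were detected in it as well, at 15705 to 20467 CPM against 25241 to 26903 CPM in the ECs themselves, so that the HSC barcodes also carried much EC RNA. The part of this RNA in the results below was not tested. Summed markers of portal fibroblasts were at 45.7, 93.4, 74.0 and 122 CPM in the HSC cluster. Those of smooth muscle were at 177, 260, 231 and 359 CPM, and mesothelial markers at 0.286, 3.76, 0.524 and 4.38 CPM. All of these sums were highest in DKO and next in YAPKO. The part of such cells in the collagen levels of HSCs was not tested. Of the 4 subclusters, subcluster 1 (89, 39, 54 and 52 cells in WT, YAPKO, TAZKO and DKO) carried the most Dcn, an HSC marker, at 9774 to 11769 CPM. Subcluster 0, the largest with 245, 118, 140 and 88 cells, scored highest for EC markers and had Dcn at 1350 to 1562 CPM, against 36.9 to 59.0 CPM in the ECs themselves. Subcluster 2 (91, 16, 61 and 17 cells) scored highest for HC markers and subcluster 3 (22, 14, 43 and 40 cells) for KC markers. Most barcodes of the HSC cluster thus carried marker RNA of another type beside that of HSCs, and shares of HSCs below are shares of all barcodes of the cluster. Values of subcluster 1 are therefore given for the members called in HSCs, and those of the other members are for the mixed cluster.

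Over all kept cells, 43 members had at least 100 UMIs, 22 had 1 to 99, and 6 were at 0 (Col28a1, Mmp1a, Mmp1b, Mmp3, Mmp10 and Mmp21). The members with the most UMIs were Timp3 with 58622, Col4a1 with 35583, Timp2 with 30708, Col18a1 with 24160 and Col4a2 with 18173. For each of the 43 members, the cell type with the highest level was sought among HSCs, ECs, myeloid cells, BECs and HCs. HSCs were highest in all 4 libraries for 13 members, or 30.2%, against 3.34% of all genes. These were Col1a1, Col1a2, Col3a1, Col5a1, Col5a2, Col5a3, Col6a1, Col6a2, Col6a3, Col8a1, Col14a1, Col16a1 and the gelatinase Mmp2. Myeloid cells were highest for 7 (Mmp9, Mmp12, Mmp13, Mmp25, Mmp27, Col11a2 and Col20a1), where 9.95% of all genes were. ECs were highest for Timp3, Mmp14 and Col13a1 (8.45% of all genes), BECs for Col4a5, Mmp11 and Mmp15 (8.27%), and HCs for Col18a1 and Mmp19 (8.84%). For the other 15 members the highest type differed between libraries. The chains of types I, III, V and VI were thus all highest in HSCs where their place was the same in every library, while the fibrillar Col11a2 and the fibril-associated Col20a1 were highest in myeloid cells. Among the MMPs with such a fixed place, Mmp9, Mmp12, Mmp13, Mmp25 and Mmp27 were highest in myeloid cells, and Mmp2, Mmp11, Mmp14, Mmp15 and Mmp19 in other cell types.

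**Figure D1:**
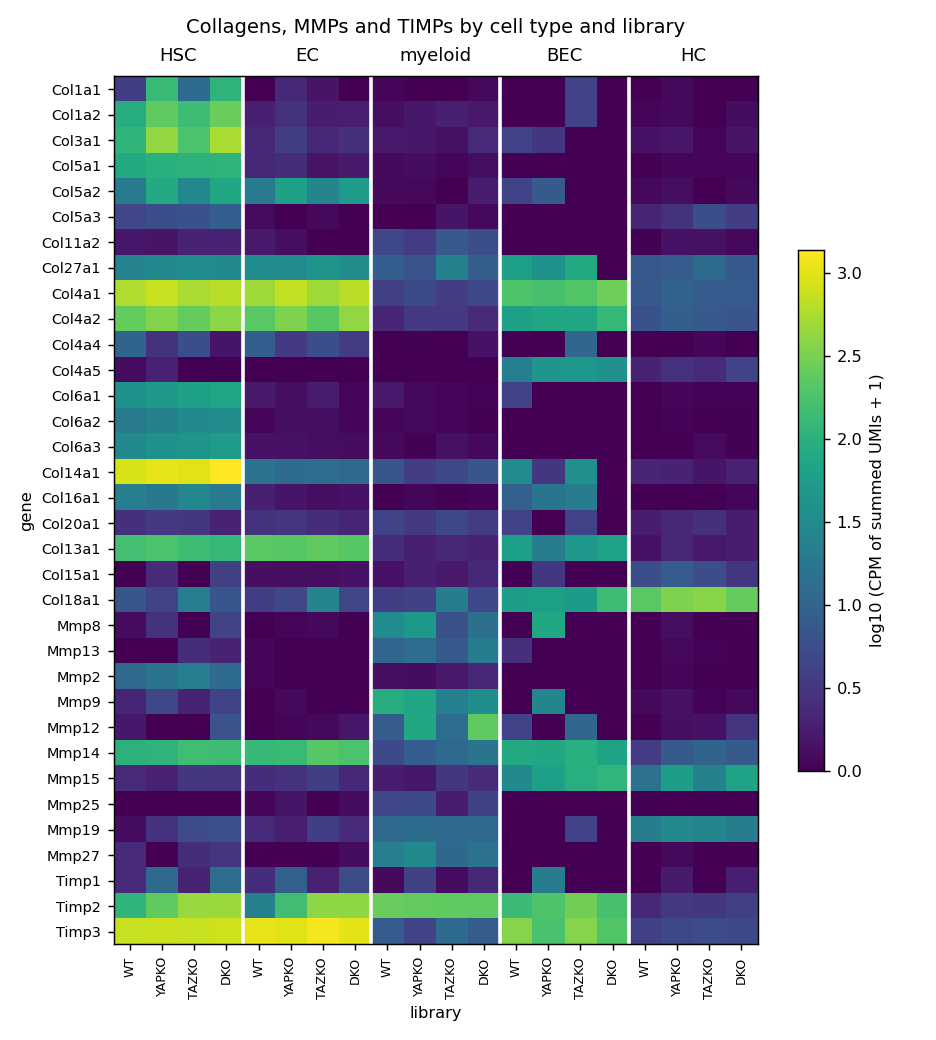
Level of the members with at least 100 UMIs in at least 1 of 5 cell types. Rows are genes, columns are the libraries within each cell type, and color is log10 of CPM + 1. Col14a1, Col1a2 and Col3a1 are bright in HSCs, Timp3 and Col4a1 in HSCs and ECs, Mmp9 and Mmp12 in myeloid cells, and Col18a1 in HCs.

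The type I and III chains and Col5a2 were higher in HSCs of YAPKO and DKO than of WT, and less so in TAZKO, while the fibrillar Col5a1 and Col27a1 stayed within 2-fold. Of the 18 members with enough UMIs in HSCs, 5 were at least 2-fold higher in both YAPKO and DKO (Col1a1, Col1a2, Col3a1, Col5a2 and Timp2), where 0.511% of the 9002 genes measured were. Col1a1 among them reached the UMI minimum only through YAPKO and DKO, the libraries where it was high. No member was 2-fold lower in both, where 0.578% of genes were. Without the 8% of cells with the highest doublet scores, Col1a2 and Timp2 were no longer called, with log2 ratios of 0.83 and 0.51 in YAPKO. In cells chosen by the level of HSC markers Timp2 was no longer called either, at 0.87 in YAPKO. With the limits of 500 and 6000 read as UMIs per barcode in place of genes, which the study's wording also allows, few HSCs were left and 0 of 7 members measured were called, with the sum of the type I and III chains at 0.95 in YAPKO and 2.42 in TAZKO, so that the order of these libraries turned. Col1a1, Col1a2 and Col3a1, the chains of types I and III, together reached 205 CPM in WT, 795 in YAPKO, 333 in TAZKO and 927 in DKO. The log2 ratio of this sum to WT was 1.96 (1.83 to 2.09) in YAPKO, 0.70 (0.54 to 0.86) in TAZKO and 2.18 (2.05 to 2.31) in DKO. Without the 3 cells with the most of these UMIs in each library it was 1.07 in YAPKO and 1.79 in DKO, so that few cells carried much of the YAPKO difference.

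Col1a1 was at 2.86 CPM in WT, 132 in YAPKO, 11.5 in TAZKO and 108 in DKO. WT and TAZKO were low with 10 and 22 UMIs, and YAPKO and DKO were high with 282 and 221. Its log2 ratio was 5.53 (4.63 to 6.61) in YAPKO, 2.01 (0.88 to 3.26) in TAZKO and 5.24 (4.33 to 6.32) in DKO. Col1a2, its partner chain in type I collagen, was at 89.7 CPM in WT, 238 in YAPKO, 144 in TAZKO and 263 in DKO, with ratios of 1.41 (1.20 to 1.62) in YAPKO, 0.69 (0.45 to 0.92) in TAZKO and 1.55 (1.35 to 1.76) in DKO. In WT, Col1a2 had many more UMIs than Col1a1 (314 against 10), while in YAPKO and DKO the pair was closer (507 against 282 and 541 against 221). UMIs count molecules near their 3′ end and do not grow with transcript length. Col3a1, which forms thin fibrils and often joins type I, was at 112 CPM in WT, 425 in YAPKO, 177 in TAZKO and 556 in DKO, with ratios of 1.92 (1.75 to 2.10) in YAPKO, 0.66 (0.44 to 0.87) in TAZKO and 2.31 (2.14 to 2.48) in DKO. Col5a2, a chain of the type V collagen that starts fibrils, was at 19.1 CPM in WT, 82.2 in YAPKO, 28.3 in TAZKO and 74.0 in DKO. Its main partner Col5a1 was at 78.6 CPM in WT, 96.2 in YAPKO, 107 in TAZKO and 111 in DKO, so that of this pair Col5a2 passed 2-fold in YAPKO and DKO and Col5a1 did not. For Col1a2, Col3a1 and Col5a2 alike, WT was lowest, TAZKO came next, and the levels of YAPKO and DKO stood clear of both.

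Col3a1 and Col5a2 are neighbors (chr1:45311538-45349706, plus strand, and chr1:45374321-45503282, minus strand, GRCm38, GENCODE M21), with 24614 bp between them. Col1a1 lies at chr11:94936224-94953042 and Col1a2 at chr6:4504814-4541544, both on the plus strand. The RefSeq start windows of Col3a1 and Col1a2 are printed because these chains had the most UMIs of the called collagens and were high together in YAPKO and DKO. Each runs 5′ to 3′ from 250 bases before the start site to 50 bases after it (GRCm38.p6, plus strand, chr1:45311288-45311587 and chr6:4505368-4505667). Capitals mark letters on either strand that match GGAATG, the core motif of TEAD factors, which are the DNA-binding partners of YAP and TAZ, or TATAAA in Col3a1, and CCAAT in Col1a2.
Col3a1: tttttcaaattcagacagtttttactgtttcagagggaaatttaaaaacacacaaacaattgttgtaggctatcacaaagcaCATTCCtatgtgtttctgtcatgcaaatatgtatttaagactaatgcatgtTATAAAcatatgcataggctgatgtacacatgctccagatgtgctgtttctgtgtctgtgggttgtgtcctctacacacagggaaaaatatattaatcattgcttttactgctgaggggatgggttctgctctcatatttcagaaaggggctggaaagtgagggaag
Col1a2: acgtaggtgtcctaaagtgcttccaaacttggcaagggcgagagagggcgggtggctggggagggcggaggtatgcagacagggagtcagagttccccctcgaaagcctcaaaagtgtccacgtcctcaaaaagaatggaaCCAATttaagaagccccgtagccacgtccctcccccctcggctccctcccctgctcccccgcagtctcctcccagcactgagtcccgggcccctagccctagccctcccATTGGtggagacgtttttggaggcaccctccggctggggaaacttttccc
Col3a1 holds the TEAD letters on the other strand, as CATTCC, and TATAAA. Col1a2 holds CCAAT once on each strand, as CCAAT and ATTGG. Of 32851 windows of this length, 14.66% hold GGAATG on either strand, 13.62% hold TATAAA and 37.41% hold CCAAT. Among the 57 members with a window, GGAATG was found in Col3a1, Col4a6, Col6a2, Col18a1, Col20a1 and Timp1, and in 0 of 18 MMPs. None of these motifs contains another. A match describes letters and not binding, and the motifs were searched in these windows only.

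**Figure D2:**
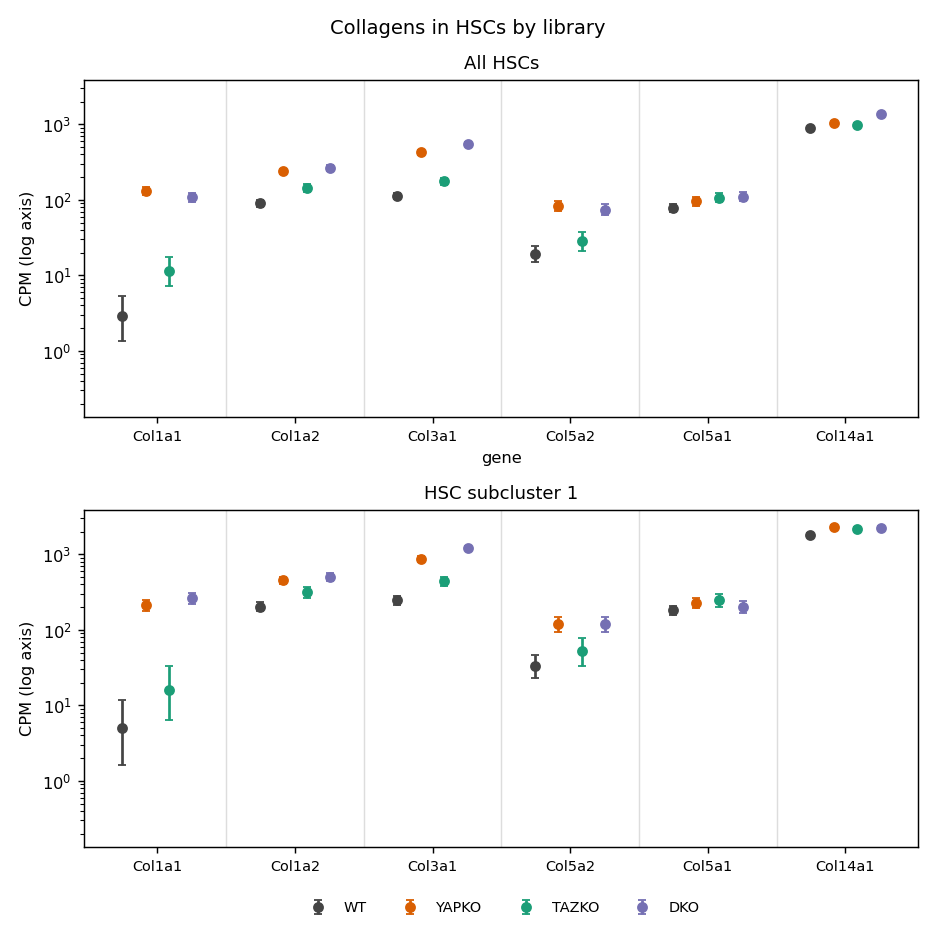
Levels of 6 collagens in all HSCs (top) and in subcluster 1 (bottom), in CPM on a log axis, with exact 95% Poisson intervals as bars and 1 point per library. Col1a1, Col1a2, Col3a1 and Col5a2 are higher in YAPKO and DKO than in WT in both panels, and Col5a1 and Col14a1 lie closer together.

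In subcluster 1, the HSCs with the highest Dcn level, YAPKO and DKO were again above WT. Col1a1 was there at 5.0 CPM in WT, 210.3 in YAPKO, 15.9 in TAZKO and 261 in DKO. Col1a2 was at 203 CPM in WT, 453 in YAPKO, 318 in TAZKO and 502 in DKO, and Col3a1 at 246 CPM in WT, 861 in YAPKO, 438 in TAZKO and 1209.8 in DKO. The log2 ratio of Col3a1 was 1.81 (1.59 to 2.03) in YAPKO, 0.83 (0.55 to 1.11) in TAZKO and 2.30 (2.09 to 2.51) in DKO there. Col5a2 was at 33.0 CPM in WT, 119.9 in YAPKO, 52.2 in TAZKO and 118 in DKO in subcluster 1, and at 7.75, 69.6, 18.1 and 47.1 CPM in subcluster 0, where its log2 ratios were 3.17 (2.32 to 4.14) in YAPKO and 2.60 (1.62 to 3.67) in DKO. Subcluster 0 held little of the type I and III chains. Col3a1 was at 23.8, 237, 32.0 and 55.0 CPM there, and the high YAPKO value rested on few cells, with 257 of 286 UMIs in 3 of 118 cells. Of the 138 Col1a1 UMIs of YAPKO in subcluster 0, 133 were in 1 cell.

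The fibrillar collagens were unevenly spread over cells. Col1a1 was found in 7 of 447 HSCs of WT (1.57%), 25 of 187 of YAPKO (13.4%), 10 of 298 of TAZKO (3.36%) and 39 of 197 of DKO (19.8%), at median depths of 6913, 9990, 5258 and 8590 UMIs per cell. With each cell thinned to 1000 UMIs the shares were 0%, 4.28%, 0.690% and 4.10%. In subcluster 1 alone the shares were 3.37%, 41.0%, 5.56% and 42.3%, and 1.12%, 12.8%, 1.92% and 7.84% after thinning. In HCs, which should lack Col1a1, it was found in 0, 3, 0 and 0 cells, at median depths of 2142.5, 5946.5, 1795 and 6119 UMIs. In YAPKO the 3 HSCs with the most Col1a1 held 220 of its 282 UMIs, and in DKO 117 of 221. The share of HSCs with Col3a1 was 29.1%, 41.2%, 31.9% and 57.9% in WT, YAPKO, TAZKO and DKO, and 6.73%, 9.09%, 11.7% and 22.1% after thinning. Thinned, the YAPKO and TAZKO shares of Col3a1 were close and the DKO share was the highest. In YAPKO 3 cells held 448 of the 905 Col3a1 UMIs. Col5a2 was found in 12.3%, 39.6%, 14.8% and 42.1% of HSCs and, after thinning, in 2.02%, 9.09%, 1.38% and 6.15%. For Col5a2 the YAPKO and DKO shares were above those of WT and TAZKO at equal depth as well.

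The other collagens of HSCs stayed within 2-fold of WT in YAPKO and DKO where they had enough UMIs. In cells chosen by the level of HSC markers, Col6a2, Col6a3 and Mmp2 were called as well. Col14a1, a fibril-associated collagen, was the member with the most UMIs in HSCs, at 881 CPM in WT, 1045 in YAPKO, 982 in TAZKO and 1377 in DKO, with log2 ratios of 0.25 (0.17 to 0.33) in YAPKO, 0.16 (0.07 to 0.24) in TAZKO and 0.64 (0.57 to 0.72) in DKO. Its direction in YAPKO turned with the limits read as UMIs (-0.40) and without the highest doublet scores (-0.35). Dcn, the HSC marker, was at 5345, 4596, 5796 and 5535 CPM in the same cells. The type VI chains, which form beaded filaments, were lowest in WT and highest in DKO, with Col6a1 at 39.4, 47.9, 60.3 and 69.6 CPM and Col6a3 at 29.1, 37.1, 41.4 and 53.6 CPM. The intervals of both log2 ratios included 0 in YAPKO and not in TAZKO and DKO. Col8a1, a network-forming collagen, had 70 UMIs in HSCs in all, at 2.86, 4.23, 4.20 and 20.9 CPM, so that DKO alone stood out, with 2.87 (1.86 to 4.03) as its log2 ratio. Mmp2, the gelatinase whose highest level among the 5 cell types compared was in HSCs, was at 11.1, 15, 21.0 and 11.7 CPM, and its intervals in YAPKO and DKO included 0. Of the 71 members, 22 had no UMI in HSCs and 31 had 1 to 99. Over the 18 others the median log2 ratio was 0.33 in YAPKO, 0.53 in TAZKO and 0.65 in DKO, where it was 0.04, 0.16 and 0.05 over all genes measured.

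A cluster of 43 cells (10, 9, 10 and 14 in WT, YAPKO, TAZKO and DKO) was led by genes of portal fibroblasts and of mesothelial cells and was left without a single name. Its levels of type I and III collagen were far above those of HSCs. Col1a1 was there at 537 CPM in WT, 2256 in YAPKO, 1074 in TAZKO and 1159 in DKO, and Col3a1 at 2345 CPM in WT, 3379.9 in YAPKO, 3109 in TAZKO and 2718 in DKO. WT was lowest for both, but in YAPKO the 3 cells with the most Col1a1 held 208 of its 261 UMIs. Timp2 reached 2069, 2014, 3698 and 3235 CPM in these cells, above every other cell type described here. Mmp2 had 104 UMIs there, with log2 ratios to WT of at least 2.94 in YAPKO, 3.66 in TAZKO and 4.08 in DKO. In these knock-out libraries it lay above its level in HSCs. With 9 to 14 cells per library these levels depend on single cells. The mix in this cluster also differed between libraries. Summed mesothelial markers were at 4445, 449, 2446 and 1058 CPM, and portal fibroblast markers at 8677, 15058, 14669 and 16740 CPM. EC markers were at 5234, 2974, 2129 and 290 CPM. The part of this mix in the levels above was not tested.

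The TIMPs differed in where they were found and in how they differed between libraries. Timp3, an inhibitor that binds to the matrix, was the member with the most UMIs and was highest in ECs, at 1072 CPM in WT, 976 in YAPKO, 1249.8 in TAZKO and 1009.6 in DKO. Its level in HSCs was 756, 778, 745 and 810.2 CPM. Neither cell type reached 2-fold in any library, and the values of the 4 libraries lay close. Timp4 had no UMI in HSCs, ECs, myeloid cells or BECs. Timp1, the inhibitor known to be induced in activated HSCs and inflamed tissue, was sparse everywhere. In ECs it had 14 UMIs in WT, 81 in YAPKO, 6 in TAZKO and 31 in DKO, and in HSCs 5, 23, 2 and 25. In both cell types YAPKO and DKO were above WT and TAZKO, and in ECs of YAPKO 3 cells held 35 of the 81 UMIs.

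Timp2, which blocks MMPs and also takes part in the activation of pro-MMP2 by MMP14, showed the largest difference of the 12 members with enough UMIs in ECs. Its gene lies at chr11:118301069-118355740 on the minus strand (GRCm38, GENCODE M21) and overlaps Cep295nl on the same strand, so that reads in the overlap cannot be assigned with certainty. The same holds for 16 of the 71 members in all, Col3a1, Col1a2, Col5a2 and Col4a1 among them, mostly beside predicted genes or small RNAs. Its RefSeq start window is printed because the gene was high in all 3 knock-out libraries (GRCm38.p6, minus strand, chr11:118355362-118355661). Capitals mark its CCAAT match.
Timp2: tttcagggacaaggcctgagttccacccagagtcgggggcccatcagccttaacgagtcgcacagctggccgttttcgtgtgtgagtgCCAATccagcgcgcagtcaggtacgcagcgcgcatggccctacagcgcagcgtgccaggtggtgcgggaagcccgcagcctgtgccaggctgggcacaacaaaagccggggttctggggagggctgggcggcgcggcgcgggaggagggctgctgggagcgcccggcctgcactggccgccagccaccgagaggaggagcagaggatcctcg
It holds neither GGAATG nor TATAAA on either strand. In ECs Timp2 was at 22.2 CPM in WT, 149 in YAPKO, 407 in TAZKO and 397 in DKO. WT was low with 201 UMIs, YAPKO was intermediate, and TAZKO and DKO were highest and close to each other. The log2 ratios were 2.75 (2.53 to 2.97) in YAPKO, 4.20 (3.99 to 4.41) in TAZKO and 4.16 (3.95 to 4.37) in DKO. Timp2 was found in 8.13%, 52.2%, 65.6% and 72.0% of ECs in WT, YAPKO, TAZKO and DKO, at median depths of 5429.5, 7763, 4102 and 5715 UMIs per cell. Thinned to 1000 UMIs per cell, the shares were 2.32%, 13.3%, 30.4% and 28.9%. The order of the libraries was thus kept at equal depth for WT, YAPKO and the pair of TAZKO and DKO. In HCs, taken as a background, the shares were 1.00%, 2.15%, 0.871% and 2.25%, at 1.22, 2.46, 2.19 and 2.89 CPM. If all Timp2 in ECs had come with HSC RNA, in proportion to Dcn, its level would have been 1.24, 2.50, 2.98 and 3.10 CPM. Clec4f, a marker of KCs, was at 15.1, 13.1, 10.9 and 6.09 CPM in ECs, lowest in DKO. The part of RNA from other cells in the Timp2 level of ECs was not tested.

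In HSCs Timp2 was at 112 CPM in WT, 233 in YAPKO, 447 in TAZKO and 465 in DKO, with log2 ratios of 1.06 (0.86 to 1.25) in YAPKO, 2.0 (1.82 to 2.17) in TAZKO and 2.05 (1.88 to 2.23) in DKO. TAZKO and DKO were again highest. Subcluster 0, which was rich in EC RNA, had 48.9, 215, 482 and 486 CPM, and subcluster 1 had 165, 301, 469.6 and 541 CPM. The ratio in DKO was 3.31 (2.96 to 3.68) in subcluster 0 and 1.71 (1.44 to 1.99) in subcluster 1, so that the difference was smaller in the cells with the most Dcn. In KCs the level was 295, 325, 276 and 331 CPM, and in macrophages 319, 229.6, 231 and 178 CPM, with WT highest in macrophages. Neutrophils had 161, 122, 154 and 168 CPM, and BECs 137, 185, 290.3 and 165 CPM. T cells had 33.4, 36.4, 16.8 and 23.8 CPM, with TAZKO lowest, and B cells 8.17, 5.06, 14.7 and 38.1 CPM, with DKO highest. The order with WT low, YAPKO intermediate and TAZKO and DKO high was thus seen in ECs and HSCs and not in myeloid cells or T cells. The difference between cell types was not tested.

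**Figure D3:**
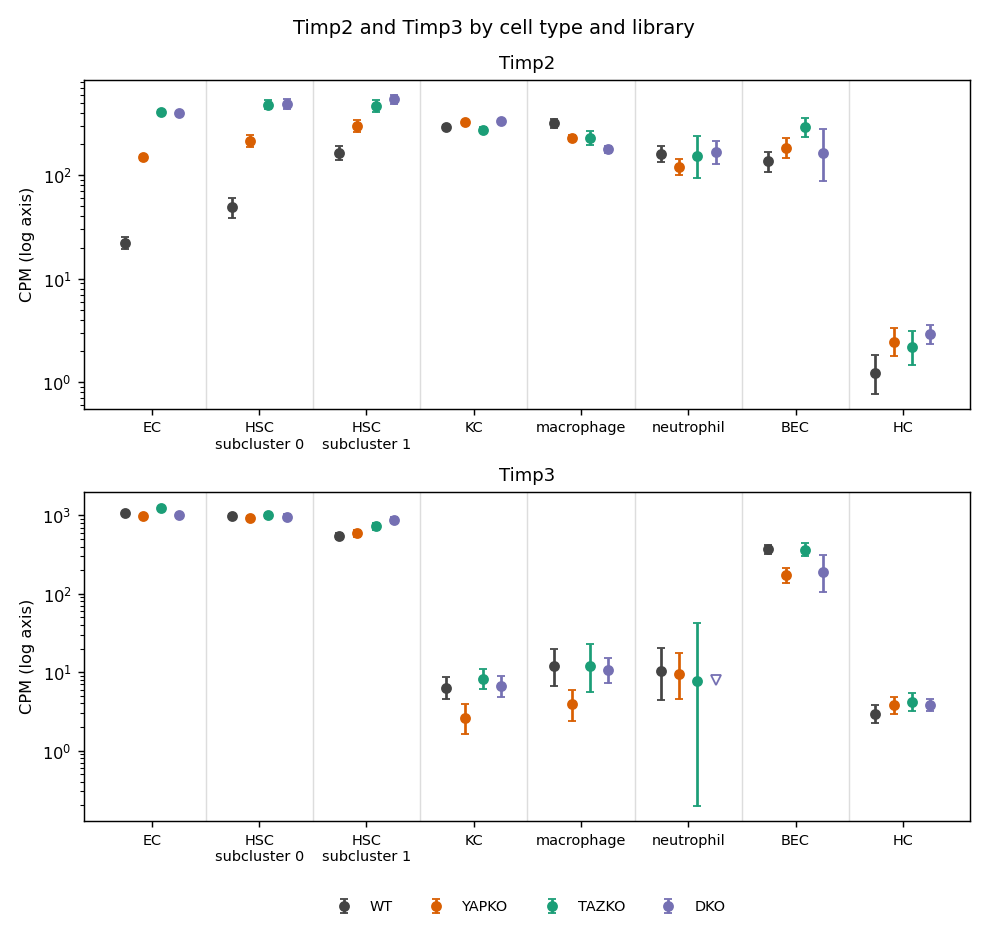
Levels of Timp2 (top) and Timp3 (bottom) by cell type and library, in CPM on a log axis, with exact 95% Poisson intervals and open triangles at the limit that a count of 0 allows. Timp2 spreads from 22.2 to 407 CPM between libraries in ECs and stays between 276 and 331 CPM in KCs, and Timp3 is highest in ECs.

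In ECs the basement membrane collagen of type IV was higher in YAPKO and DKO than in WT, by less than 2-fold. Col4a1 and Col4a2 encode the chains that form its common heterotrimer, and together they were at 712 CPM in WT, 1042 in YAPKO, 701 in TAZKO and 1087 in DKO. WT and TAZKO lay together, and YAPKO and DKO lay above them. The log2 ratio was 0.55 (0.50 to 0.59) in YAPKO, -0.02 (-0.08 to 0.03) in TAZKO and 0.61 (0.56 to 0.66) in DKO. Col4a1 was at 497, 700.4, 492 and 659 CPM and Col4a2 at 215, 341, 209 and 427 CPM in the same order. The ratio in DKO was 0.41 (0.35 to 0.47) for Col4a1 and 0.99 (0.91 to 1.08) for Col4a2, so that the pair did not differ from WT to the same extent. Their genes lie head to head and overlap by 22 bp (chr8:11198423-11312826, minus strand, and chr8:11312805-11449287, plus strand, GRCm38, GENCODE M21). The RefSeq start windows are printed because the pair shares one stretch of promoter (GRCm38.p6, chr8:11312777-11313076 on the minus strand for Col4a1 and chr8:11312555-11312854 on the plus strand for Col4a2). Capitals mark the 78 bases that both windows cover, each read on its own strand.
Col4a1: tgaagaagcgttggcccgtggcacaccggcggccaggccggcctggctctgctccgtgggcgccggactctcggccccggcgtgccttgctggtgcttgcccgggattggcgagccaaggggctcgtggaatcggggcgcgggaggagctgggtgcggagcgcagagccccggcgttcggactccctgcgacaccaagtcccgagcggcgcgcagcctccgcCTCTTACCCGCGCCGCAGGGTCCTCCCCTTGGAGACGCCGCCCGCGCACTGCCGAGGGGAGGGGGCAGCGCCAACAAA
Col4a2: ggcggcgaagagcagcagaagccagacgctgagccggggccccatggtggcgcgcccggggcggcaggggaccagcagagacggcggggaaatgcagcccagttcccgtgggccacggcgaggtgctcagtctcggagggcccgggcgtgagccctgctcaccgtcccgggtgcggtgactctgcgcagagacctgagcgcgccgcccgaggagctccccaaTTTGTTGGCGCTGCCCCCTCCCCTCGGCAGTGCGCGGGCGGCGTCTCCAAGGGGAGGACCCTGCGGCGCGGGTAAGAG
CCAAT on either strand is in both windows, as in 37.41% of all windows. HSCs also held both chains, with Col4a1 at 587, 756, 554 and 641 CPM and Col4a2 at 246, 353, 249 and 387 CPM. There Col4a1 differed little between WT, TAZKO and DKO, while Col4a2 was again higher in YAPKO and DKO. Per molecule of EC marker RNA the log2 ratio of the Col4a1 and Col4a2 sum in ECs was 0.64 in YAPKO and 0.70 in DKO.

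Of the 12 members with enough UMIs in ECs, 3 were at least 2-fold higher in both YAPKO and DKO (Col5a2, Timp1 and Timp2), where 0.67% of the 11048 genes measured were. Timp1 reached the UMI minimum only through YAPKO and DKO, the libraries where it was high. Only Col4a4 was 2-fold lower in both, where 2.13% of genes were, and it reached the UMI minimum only with its WT UMIs. Col4a3 missed the minimum and was called as well under several other settings. With the limits read as UMIs, Col5a2 and Timp2 were called and Timp1 and Col4a4 were not. Col5a2 was at 18.1 CPM in WT, 61.1 in YAPKO, 25.8 in TAZKO and 52.0 in DKO, with log2 ratios of 1.75 (1.5 to 2.01) in YAPKO, 0.51 (0.19 to 0.83) in TAZKO and 1.52 (1.25 to 1.80) in DKO. Its EC levels thus resembled those of HSCs in both size and order, and it was found in 6.42%, 26.1%, 7.84% and 21.6% of ECs and, after thinning, in 1.47%, 6.19%, 2.68% and 5.04%. Col3a1, its neighbor, was low in ECs, at 1.22, 2.78, 1.26 and 1.66 CPM, against 1.24, 4.57, 1.18 and 3.71 CPM if it had come with HSC RNA in proportion to Dcn, and the part of HSC RNA in it was not tested. Col4a4 and Col4a3, chains of the specialised basement membrane known from kidney, share a start region with 71 bp between the genes. Col4a4 was at 7.62, 2.37, 4.72 and 2.49 CPM and Col4a3, with 98 UMIs in all, at 6.96, 1.86, 1.10 and 1.38 CPM, so that WT was highest for both. Col13a1, a transmembrane collagen highest in ECs, was at 214, 212, 235 and 210.1 CPM, with log2 ratios of -0.01 (-0.10 to 0.08) in YAPKO, 0.14 (0.04 to 0.24) in TAZKO and -0.02 (-0.12 to 0.07) in DKO, so that TAZKO was slightly above the others. Mmp14, the membrane-bound collagenase that activates pro-MMP2, was at 124, 128, 213 and 176 CPM, with log2 ratios of 0.05 (-0.07 to 0.17) in YAPKO, 0.78 (0.66 to 0.89) in TAZKO and 0.50 (0.39 to 0.62) in DKO. TAZKO and DKO were thus above WT and YAPKO for Mmp14, all within 2-fold.

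**Figure D4:**
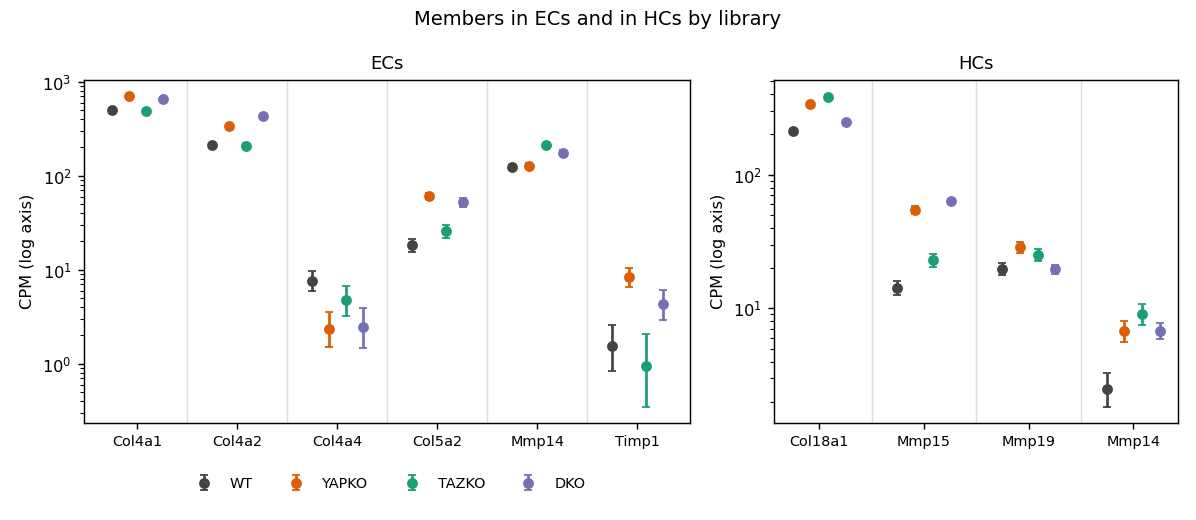
Levels of Col4a1, Col4a2, Col4a4, Col5a2, Mmp14 and Timp1 in ECs (left) and of Col18a1, Mmp15, Mmp19 and Mmp14 in HCs (right), in CPM on a log axis with exact 95% Poisson intervals. Col5a2 in ECs and Mmp15 in HCs are higher in YAPKO and DKO than in WT, and Col4a4 in ECs is lower.

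In myeloid cells 16 members had enough UMIs. Mmp12 was the 1 member at least 2-fold higher in both YAPKO and DKO, where 0.959% of the 11578 genes measured were, and 0 members were 2-fold lower in both, where 1.11% of genes were. With the limits read as UMIs 0 of 9 members measured were called, although Mmp12 in KCs was still at 2.43 in YAPKO and 5.20 in DKO on the log2 scale, and under 4 other settings Mmp14 or Col5a2 was called as well. MMP12, the macrophage elastase, cuts elastin, and MMP13 is the main collagenase of mice. Both genes lie in a group of 10 Mmp genes on chromosome 9 (chr9:7272514-7699585, GRCm38, GENCODE M21), in which Mmp1a, Mmp1b, Mmp3 and Mmp10 had no UMI in any kept cell. The windows of Mmp12 and Mmp13 are printed because Mmp12 was the myeloid member called and Mmp13, a collagenase, is its neighbor in the group (GRCm38.p6, plus strand, chr9:7347124-7347423 and chr9:7272264-7272563). Mmp12 has a further window, and the printed window was picked because it holds TGAGTCA. Its match to this motif was thus fixed by the choice. Capitals mark TGAGTCA on either strand, the motif of AP-1 factors, and TATAAA.
Mmp12: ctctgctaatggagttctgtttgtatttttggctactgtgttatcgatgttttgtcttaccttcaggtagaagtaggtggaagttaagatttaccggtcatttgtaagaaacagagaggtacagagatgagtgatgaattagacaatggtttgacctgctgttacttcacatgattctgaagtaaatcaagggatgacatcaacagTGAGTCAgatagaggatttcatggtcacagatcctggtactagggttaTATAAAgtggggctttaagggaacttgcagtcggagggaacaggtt
Mmp13: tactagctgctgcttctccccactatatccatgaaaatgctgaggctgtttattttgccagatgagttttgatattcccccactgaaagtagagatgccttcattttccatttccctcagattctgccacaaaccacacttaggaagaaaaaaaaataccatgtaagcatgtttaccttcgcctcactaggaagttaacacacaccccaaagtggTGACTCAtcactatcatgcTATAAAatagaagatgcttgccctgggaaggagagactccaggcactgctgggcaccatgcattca
TGAGTCA was found in a window of 7 of the 10 genes of this group and, among all other members with a window, only in Col6a1. Of all windows, 5.202% hold it. TATAAA was in a window of 9 of the 10 genes, and 13.62% of all windows hold it. Genes with several windows count once here, so that counts of genes and shares of windows differ in unit.

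In KCs, Mmp12 was at 6.45 CPM in WT, 59.8 in YAPKO, 8.61 in TAZKO and 346 in DKO. WT and TAZKO were low with 41 and 50 UMIs, YAPKO was higher with 532, and DKO was highest with 2298. The log2 ratios were 3.21 (2.75 to 3.71) in YAPKO, 0.42 (-0.21 to 1.05) in TAZKO and 5.75 (5.30 to 6.23) in DKO. Mmp12 was found in 2.36%, 9.80%, 0.912% and 23.3% of KCs, at median depths of 10474, 16827, 4715 and 10056 UMIs, and in 0.337%, 2.33%, 0.471% and 12.7% after thinning. The DKO share was thus far above the others at equal depth, and the YAPKO share was between. In YAPKO 3 cells held 213 of the 532 UMIs, and in DKO 335 of 2298. B cells, which should lack the gene, held 0, 0, 1 and 3 Mmp12 UMIs, at median depths of 2946, 2877, 2872.5 and 2193 UMIs. HCs held 0, 6, 6 and 64 Mmp12 UMIs, at 0, 0.352, 0.438 and 2.03 CPM, and HSCs 2, 0, 0 and 11. DKO was thus highest in these cell types as well, at levels far below those of its KCs, and the part of free RNA was not tested. In macrophages, which numbered 130, 432, 114 and 433, Mmp12 was at 18.5, 138, 36.1 and 185 CPM, and 3 YAPKO cells held 503 of that library's 715 UMIs. In both cell types YAPKO and DKO were above WT and TAZKO.

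Mmp13 in KCs was at 9.44, 13.5, 3.10 and 22.3 CPM, with log2 ratios of 0.51 (0.05 to 0.99) in YAPKO, -1.61 (-2.45 to -0.83) in TAZKO and 1.24 (0.80 to 1.70) in DKO. In macrophages it was at 24.9, 17.6, 45.5 and 32.1 CPM, where the interval of the ratio in DKO, 0.36 (-0.23 to 0.99), included 0. The order of the libraries thus differed between the 2 cell types, and this was not tested. Mmp27, a member of the same chromosome 9 group, was at 30.7, 50.2, 14.0 and 24 CPM in KCs, highest in YAPKO and lowest in TAZKO. Mmp19 was at 13.2, 14.0, 11.7 and 14.3 CPM in KCs and did not differ beyond counting error. Mmp14 was low in KCs, at 1.73, 2.47, 8.44 and 6.18 CPM, and higher in macrophages, at 20.1, 19.4, 40.1 and 43.1 CPM. All Mmp members together were at 72.7 CPM in WT, 147 in YAPKO, 56.5 in TAZKO and 421 in DKO in KCs and at 119 CPM in WT, 252 in YAPKO, 158 in TAZKO and 294 in DKO in macrophages. Mmp12 alone made up most of the sum in DKO KCs and in YAPKO and DKO macrophages. These sums thus do not show a rise of MMPs as a whole.

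Neutrophils held the highest MMP levels of all, at 1372 CPM in WT, 1676 in YAPKO, 1238 in TAZKO and 1404 in DKO for all Mmp members together, and the libraries lay close. Mmp9, the gelatinase stored in neutrophil granules, was at 1008, 1054, 1022 and 1055 CPM in neutrophils, with ratios whose intervals all included 0. Mmp8, neutrophil collagenase, was at 321, 562, 192 and 328 CPM, highest in YAPKO. Over all myeloid cells Mmp9 was at 90, 69.2, 21.7 and 34.5 CPM and Mmp8 at 31.6, 45.9, 5.0 and 13.5 CPM, and both were at least 2-fold lower than WT in TAZKO and DKO. The number of neutrophils was 321, 400, 53 and 184, and the summed level of the 8 neutrophil markers over all myeloid cells was 13076, 10462, 724 and 3535 CPM. TAZKO was lowest and DKO next in all of these, while WT had the highest Mmp9 level over all myeloid cells and YAPKO the most neutrophils. The part of neutrophil numbers in the Mmp9 level over all myeloid cells was not tested.

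**Figure D5:**
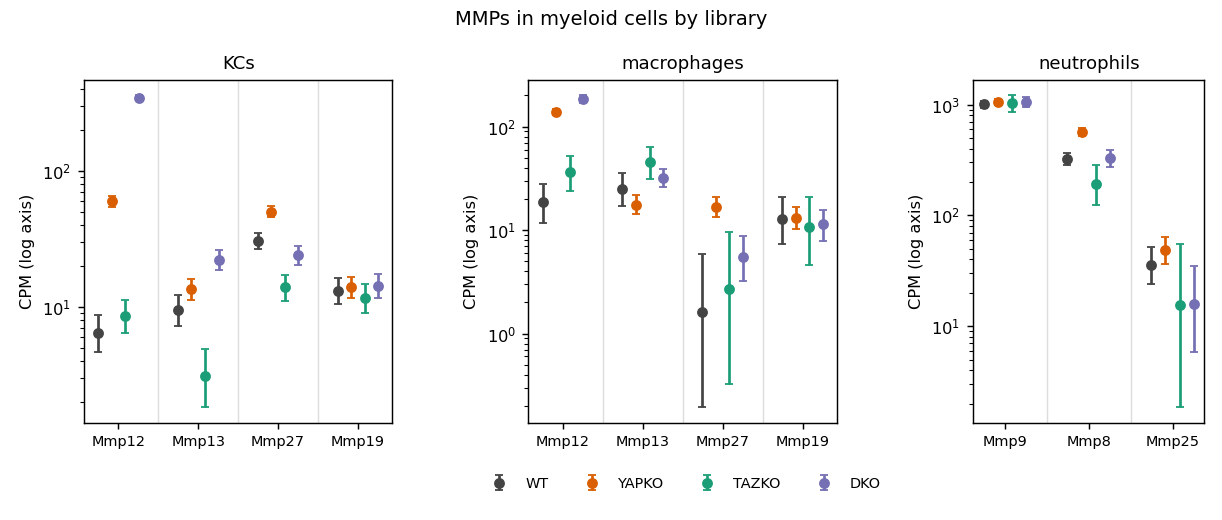
Levels of Mmp12, Mmp13, Mmp27 and Mmp19 in KCs and macrophages and of Mmp9, Mmp8 and Mmp25 in neutrophils, in CPM on a log axis with exact 95% Poisson intervals, 1 point per library. Mmp12 in KCs goes from 6.45 CPM in WT to 346 CPM in DKO, and Mmp9 in neutrophils is nearly level.

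In HCs, the cells in which Yap and Taz were deleted, few members were abundant. Of 12 members with enough UMIs, 3 (Mmp14, Mmp15 and Timp2) were at least 2-fold higher in both YAPKO and DKO, where 5.42% of the 10946 genes measured were, and 0 were lower, where 0.411% were. Timp2 reached the UMI minimum only with the UMIs of YAPKO and DKO, its highest libraries. HC genes as a whole lay above WT, with a median difference of 0.44 in YAPKO, 0.56 in TAZKO and 0.47 in DKO on the log2 scale, and relative to it only Mmp15 passed 2-fold. Timp2 was no longer called without Harmony (0.96 in YAPKO) or without the 8% of cells with the highest doublet scores (0.47). With the limits read as UMIs its log2 ratios turned to -1.13, -0.92 and -0.27 in YAPKO, TAZKO and DKO, and Mmp15 and Col27a1 were called. Mmp15, a membrane-type MMP related to MMP14, was at 14.1 CPM in WT, 54.2 in YAPKO, 23.0 in TAZKO and 63.0 in DKO. WT and TAZKO were low, and YAPKO and DKO were high, with log2 ratios of 1.94 (1.74 to 2.14) in YAPKO, 0.70 (0.46 to 0.94) in TAZKO and 2.16 (1.97 to 2.35) in DKO. Thinned to 1000 UMIs, 1.10%, 3.64%, 2.44% and 3.34% of HCs held it, so that at equal depth TAZKO lay nearer to DKO than in the CPM values. Col18a1, the basement membrane collagen whose end fragment is endostatin, was the most abundant member in HCs, at 213 CPM in WT, 336 in YAPKO, 381 in TAZKO and 245 in DKO. All 3 knock-out libraries were above WT, by less than 2-fold. The log2 ratios of Col18a1 were 0.66, 0.84 and 0.20 in YAPKO, TAZKO and DKO. They lay above the median of all HC genes in YAPKO and TAZKO and below it in DKO. Col15a1, another basement membrane collagen with an endostatin-like end, was at 4.60, 7.21, 4.75 and 2.13 CPM, lowest in DKO. Mmp19 was at 19.7, 28.6, 25.1 and 19.6 CPM, and Mmp14 at 2.49, 6.74, 9.06 and 6.77 CPM.

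BECs, the other cells in which Alb-Cre acts, numbered only 53, 32, 28 and 7, so that single cells weigh on each value. Their level of summed EC markers was 8731, 1944, 8167 and 5553 CPM, so that EC RNA varied between the libraries. Mmp7, an MMP known from injured bile duct epithelium, had 17, 63, 4 and 1 UMIs, and in YAPKO 3 of 32 cells held 44 of the 63. Mmp15 was at 29.6, 57.9, 93.4 and 114 CPM, lowest in WT as in HCs. Timp3 was the most abundant member in BECs by UMIs, at 370.1, 172, 367 and 190.2 CPM, and was lower in YAPKO and DKO, the libraries with the lower EC marker sums. The part of EC RNA in the Timp3 level of BECs was not tested. Col4a1 was at 188, 169, 190.2 and 279 CPM. Col4a5, a basement membrane chain highest in BECs, was at 21.4, 42.3, 46.7 and 38.0 CPM from 3 to 19 UMIs per library. Timp1 had 9 UMIs in YAPKO and 0 in each of the other libraries.

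TAZKO differed from WT in fewer of the fibrillar collagens and in other members. In HSCs, 2 of 18 members, Col1a1 and Timp2, were at least 2-fold higher in TAZKO, where 4.19% of genes were, and 0 members were 2-fold lower, where 2.07% were. Col1a1 reached the UMI minimum only through YAPKO and DKO, and its interval in TAZKO (0.88 to 3.26) reached below 2-fold. In ECs, 2 of 12, Col18a1 and Timp2, were higher (4.07%), with 0 lower (2.32%). Col18a1 reached the UMI minimum in ECs only through TAZKO, where it was high. In myeloid cells 3 of 16, Col18a1, Col27a1 and Mmp14, were higher (7.26%), and 3 of 16, Mmp8, Mmp9 and Mmp25, lower (4.05%). In HCs, 2 of 12, Col5a3 and Mmp14, were higher, or 16.7% against 19.1% of all genes, and 0 were lower (1.86%). The share of members higher in HCs was thus no larger than that of genes in general. Col18a1 in ECs was at 2.87 CPM in WT, 3.61 in YAPKO, 24.2 in TAZKO and 3.60 in DKO, so that TAZKO alone stood apart. Alb, the main transcript of HCs, was at 1183, 324, 2079.8 and 449 CPM in ECs, and Col18a1 would have been at 6.24, 2.74, 16.6 and 3.27 CPM had it come with HC RNA in proportion to Alb. B cells held 5.66, 5.69, 49.2 and 8.37 CPM and T cells 5.57, 5.77, 43.2 and 9.47 CPM of Col18a1. TAZKO was thus highest for Col18a1 in each of these cell types, together with Alb in ECs. Whether the 2 have the same source was not tested. Col27a1, a fibrillar collagen known from cartilage, was at 9.29, 7.53, 28.1 and 7.24 CPM in KCs, and again TAZKO stood apart.

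In HSCs, where 0.511% of all genes measured were 2-fold higher and 0.578% lower in both YAPKO and DKO, lists of this size hold few such genes, and their counts are given as a description. Of the genes around collagen, 0 of 15 measured genes for collagen folding and secretion, 0 of 6 for propeptide cleavage and cross-linking, 0 of 12 of TGF-β signaling, 0 of 4 collagen receptors and 0 of 10 basement membrane partners passed 2-fold in both. Serpinh1, the collagen chaperone HSP47, was at 239, 344, 324 and 224 CPM, and P4hb, a subunit of prolyl hydroxylase, at 203, 215, 246 and 229.8 CPM. Neither followed the order of Col1a1 or Col3a1. Tgfbr3, the TGF-β co-receptor, was at 228, 221, 283 and 234 CPM and Tgfbr2 at 207, 208, 205 and 183 CPM. Itgb1, the β chain of the collagen-binding integrins, was at 998, 953, 688 and 839 CPM, and its partner Itga1 at 758, 719.7, 904 and 782 CPM. Of the basement membrane partners, Hspg2, the gene of perlecan, was at 288, 297, 366 and 227 CPM and Nid1, that of nidogen, at 219, 258, 269 and 269 CPM. None of these 4 receptors and 2 matrix genes set YAPKO and DKO apart from WT by 2-fold. Among MMP activators and inhibitors 1 of 5, the urokinase receptor gene Plaur, was higher in both, at 7.14, 16.4, 8.92 and 15.6 CPM. Plaur reached the UMI minimum only through YAPKO and DKO. Among genes of activated mesenchyme 1 of 6, the actin-binding Tagln, was higher in both, at 41.7, 102, 34.1 and 156 CPM. Acta2, the gene of smooth muscle actin that defines activated HSCs, was at 1.00, 1.56, 0 and 7.87 CPM in subcluster 1. In subcluster 0 it was at 0, 35.6, 0 and 0 CPM, with 43 UMIs in YAPKO, of which 41 were in 1 cell. Ccn2, a well-known YAP and TAZ target, was at 189.7, 175, 65.6 and 83.3 CPM in HSCs and 121, 139, 15.3 and 44.4 CPM in ECs, lowest in TAZKO in both cell types. Sparc, which binds collagen, was at 3106, 3249, 1530.5 and 3494 CPM in HSCs and 2789, 2785, 1072 and 3252 CPM in ECs, also lowest in TAZKO. In ECs, Fbn1, the gene of fibrillin, was at 4.86, 16.9, 16.4 and 28.9 CPM, and with Fstl1, at 2.10, 4.85, 3.31 and 8.44 CPM, made up the 2 of 5 measured genes of activated mesenchyme that were 2-fold higher in both YAPKO and DKO, where 0.67% of all genes measured in ECs were. Fstl1 reached the UMI minimum there only through YAPKO and DKO. Plg, the gene of plasminogen, and Serpinf2, that of its inhibitor, were 2-fold lower in both, where 2.13% of genes were, at 16.1, 6.50, 39.5 and 5.67 and 8.18, 2.99, 22.7 and 3.32 CPM. Both are known as genes of HCs. Alb in ECs was lower in YAPKO and DKO too, and the part of HC RNA in the lower Plg and Serpinf2 levels was not tested.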

How the data were processed

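Livers were perfused with collagenase, HCs and non-parenchymal cells were isolated separately and mixed 3 to 7, and droplet libraries were sequenced, 1 per genotype. The authors deposited UMI counts per gene and barcode for each library, not normalized and not restricted to the cells they kept, aligned to mm10. Cell Ranger is given as version 6.0.1 in the submitters' notes and as 4.0.0 in the matrix headers. Barcodes with 500 to 6000 genes and at most 10% mitochondrial UMIs were kept. Counts were scaled to 10000 per cell, and cells were clustered with scanpy 1.11.5 and igraph 0.11.9 on 2000 variable genes without the members (20 components, 20 neighbors, resolution 0.4, Harmony over libraries), and HSCs again at 0.3. An automatic doublet call marked 1 to 3 cells per library and so did not work, and no doublets were removed in the reported values. UMIs were summed per library and cell type, and no test across replicates was possible. Intervals were computed with scipy 1.17.1 and cover counting error only, and a count of 0 allows up to 3 UMIs. On simulated HSC counts of 9002 genes, drawn with counting error alone, intervals held 95.626% of unchanged genes. There 98% of 4-fold changes and 0% of unchanged genes were called. The draws follow the same model as the intervals and hold no spread between cells or mice. These shares thus check the computation and give no rate of false calls in the data. Genes were named by rule: the 8 members with the most UMIs in each cell type, members called the same way in YAPKO and DKO, all TIMPs, the most abundant member of each role, and from each pathway list the 2 most abundant and the called genes. Other members with values, such as Mmp13, Col8a1 and Col4a3, were chosen after their values were seen, and not each gene of the rule is described. Pathway lists covered collagen folding, cleavage and cross-linking, receptors, TGF-β signaling, MMP activators and inhibitors, basement membrane partners and activated mesenchyme. Members and lists were chosen with earlier results of these data known. Promoter windows were read from a RefSeq table, which had 57 of the 71 members. Alternatives changed the cell limits, clustering, doublet removal, cell selection, scaling and the UMI minimum.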

Additional observations from a re-analysis of the deposited data

How the results depend on the processing

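Each genotype has 1 library, so that no sample could be left out. No paired analysis was possible because each genotype has 1 library. Values are log2 ratios to WT in the order given, and unless stated the cause of a difference between settings was not tested. With the limits of 500 and 6000 applied to UMIs in place of genes, which left 100, 22, 82 and 21 HSCs in WT, YAPKO, TAZKO and DKO, the fibrillar sum in HSCs was 0.95, 2.42 and 3.82 in YAPKO, TAZKO and DKO, the TIMP sum in HSCs 0.58 in TAZKO and 1.68 in DKO, and the MMP sum in myeloid cells -2.21 in TAZKO and -0.66 in DKO, which turned its direction. It left 0 members called in HSCs, 2 in ECs (Timp1 and Col4a4 lost) and 0 in myeloid cells (Mmp12 lost), and gave -0.40 for Col14a1 and -0.0685 for Col4a1 in HSCs of YAPKO, -0.28 in YAPKO and 0.32 in TAZKO for Timp2 in KCs, and -1.13, -0.92 and -0.27 for Timp2 in HCs.

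Without Harmony the Col4a1 and Col4a2 sum in ECs was 0.66 in DKO, the MMP sum 0.35, -1.32 and 0.86, 2 members were called in myeloid cells, and Timp2 was lost in HCs. Without the 8% of cells with the highest doublet scores the fibrillar sum was 1.39 in YAPKO and 1.86 in DKO, the TIMP sum 0.72 in DKO, 4 members were called in HSCs (Col1a2 and Timp2 lost, Mmp9 gained), 2 in myeloid cells (Col5a2 gained) and 2 in HCs (Timp2 lost), Col14a1 in HSCs of YAPKO was -0.35, and Timp2 in KCs of TAZKO 0.00507. In cells chosen by marker level the fibrillar sum was 2.37, 0.53 and 1.62, the type IV sum 0.50 in YAPKO and 0.54 in DKO, the TIMP sum 0.65, 0.84 and 1.00, the MMP sum -0.77 in TAZKO and 1.21 in DKO, Timp2 was lost and Col6a2, Col6a3 and Mmp2 gained in HSCs, 2 members were called in myeloid cells, and Timp2 in KCs of TAZKO was 0.29. With members kept for clustering the MMP sum was 1.13 in DKO. With the median over genes subtracted the TAZKO values were 0.54 for the fibrillar, -0.19 for the type IV, 0.30 for the TIMP and -1.36 for the MMP sum, with 2 members called in myeloid cells and 1 in HCs. As means over cells the fibrillar sum was 2.43 in DKO and the MMP sum 0.13, -1.78 and -0.0109, so that its DKO value no longer lay above WT. With 20 UMIs as the minimum, which tests more members, 10 were called in HSCs, 5 in ECs, 4 in myeloid cells and 5 in HCs. Col4a3 was gained in ECs there, at up to 20% mitochondrial UMIs, without Harmony and without the highest doublet scores. It was also gained with members kept for clustering and, together with Mmp9, in cells chosen by marker level.

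Further settings were chosen after seeing the data. Without HSC subclusters 2 and 3 the fibrillar sum was 2.12 in YAPKO and 2.39 in DKO and the TIMP sum 0.59 in TAZKO and 0.67 in DKO. In subcluster 1 alone these were 1.75 in YAPKO for the fibrillar sum and 0.35, 0.75 and 1.03 for the TIMP sum. Per UMI of Dcn the fibrillar sum was 2.18 in YAPKO and the TIMP sum 0.45 in YAPKO and 0.34 in TAZKO. Without the 3 top cells per library the fibrillar sum was 1.07 in YAPKO and 1.79 in DKO. Per UMI of EC markers the type IV sum was 0.64, 0.0558 and 0.70. The MMP sum was 1.02, -0.36 and 2.53 in KCs alone, 1.08, 0.41 and 1.31 in macrophages alone, and 0.29, -0.15 and 0.0335 in neutrophils alone. The fibrillar sum in HSCs stayed above WT in all 3 knock-out libraries under every setting run. Over all values and settings, 407 stayed, 156 moved and 13 turned direction. A ratio or share counted as stayed when it lay within its main interval. A count of members counted as stayed when it was near its main count, whichever members it held. A turn was counted only where the main interval did not include the WT level.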
